A study of Mus musculus with 30 samples.

Results

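*Abcb10*, *Abcb6* and *Abcb8* encode ATP-binding cassette (ABC) transporters of subfamily B that have been placed in mitochondria. These 3 genes were taken from the 54532 genes of the count table by matching their symbols to Ensembl identifiers on the mouse genome GRCm38, and 52 genes of the table carry a symbol of the ABC family. They were followed in murine erythroleukemia (MEL) cells, a mouse line that DMSO drives to make hemoglobin. RNA came from wildtype (WT) MEL cells and from Abcb10-null MEL cells, a single clone in which *Abcb10* was targeted with lentiviral CRISPR/Cas9, at day 0 without treatment and at days 2 and 5 in 1.5% DMSO. Each genotype and day had 5 libraries, which the labels call biological replicates, and 30 libraries were made in all. Because the Abcb10-null libraries came from 1 clone, the genotype and the clone cannot be told apart. The comparisons ask how transcripts of the targeted gene and of related transporters differ between genotypes and how they change as the cells differentiate.

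ABC transporters use ATP to move a substrate across a membrane, and some of them form a working unit only as a pair. Abcb10 lies in the inner mitochondrial membrane, is induced in erythroid cells, and is known to associate with the iron importer mitoferrin 1 (*Slc25a37*) and ferrochelatase (*Fech*), the enzyme that inserts iron into protoporphyrin. Abcb6 binds porphyrins and has been found in the outer mitochondrial membrane and in other cell membranes, including that of red blood cells, where it carries a blood group antigen. Abcb8 lies in the inner mitochondrial membrane, where it has been tied to iron export and to an ATP-sensitive potassium channel that it forms with the protein of *Ccdc51*.

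Libraries held from 9906783 to 20157768 counts, with a median of 16492116.5. Transcript levels are given as CPM, the counts per 1000000 counts of the library size as edgeR's TMM method scales it. The summed level of 10 erythroid marker genes stood apart in WT day 5 replicate 5, with 7780 CPM against 15231 to 16890 CPM in the other 4 libraries. This sum does not weigh the 10 genes evenly, as *Tfrc* alone averaged 7450 CPM in WT cells at day 5. It also includes the globin genes *Hba-a1* and *Hbb-bt*, although globin RNA was depleted from the libraries. Abcb10-null day 2 replicate 3 had the highest sum of its group, 3504 CPM against 2450 to 3115 CPM. Both libraries are kept below, and values without them are given beside the results that rest on them.

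*Abcb10* (ENSMUSG00000031974, chromosome 8, 123952459 to 123983122, minus strand) was the targeted gene, and its transcripts were lower in Abcb10-null cells at each day but were not absent. The paper reports that the clone had lost the protein completely by Western blot. Counts per gene do not measure protein and do not tell edited transcripts from unedited ones. The exons of *Abcb10* span 4306 bases in 1 annotated transcript. In WT cells at day 0 the 5 libraries had 126, 123, 116, 112 and 117 CPM, and the Abcb10-null libraries had 71.9, 76.5, 67.2, 79.4 and 76.7 CPM. At day 2 the WT libraries had 659, 661, 475, 540 and 502 CPM, and the Abcb10-null libraries had 162, 166, 312, 189 and 184 CPM. At day 5 the WT libraries had 1231, 1152, 1208, 1259 and 1264 CPM, and the Abcb10-null libraries had 233, 237, 232, 181 and 177 CPM. At each day the highest Abcb10-null library was under the lowest WT library, and such a gap was seen in one direction or the other for 22.9% of all genes tested at day 0, 16.1% at day 2 and 23.9% at day 5. With bulk RNA such a difference can hold fewer cells with the transcript or less transcript per cell, and these cannot be told apart.

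The mean level of *Abcb10* in Abcb10-null cells was 62.6% of the WT mean at day 0, 35.7% at day 2 and 17.3% at day 5. As a log2 fold change, here called the log2 change, the Abcb10-null level relative to WT was -0.68 (standard error, SE, 0.063) at day 0, with an edgeR adjusted p of 1.16e-07. It was -1.54 (SE 0.19, edgeR adjusted p = 0.000551) at day 2 and -2.54 (SE 0.12, edgeR adjusted p = 5.51e-08) at day 5. Without the day 2 library with 312 CPM, the day 2 value was -1.74. Over all genes the test called 36.0% at day 0, 31.8% at day 2 and 37.6% at day 5, of which the lower ones were 16.2%, 16.9% and 17.8% and the higher ones 19.7%, 14.9% and 19.8% of the genes tested. In the order of log2 changes from the lowest, *Abcb10* stood at 578 of 12912 genes at day 0, at 718 of 13053 at day 2 and at 58 of 12676 at day 5.

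**Figure D1:**
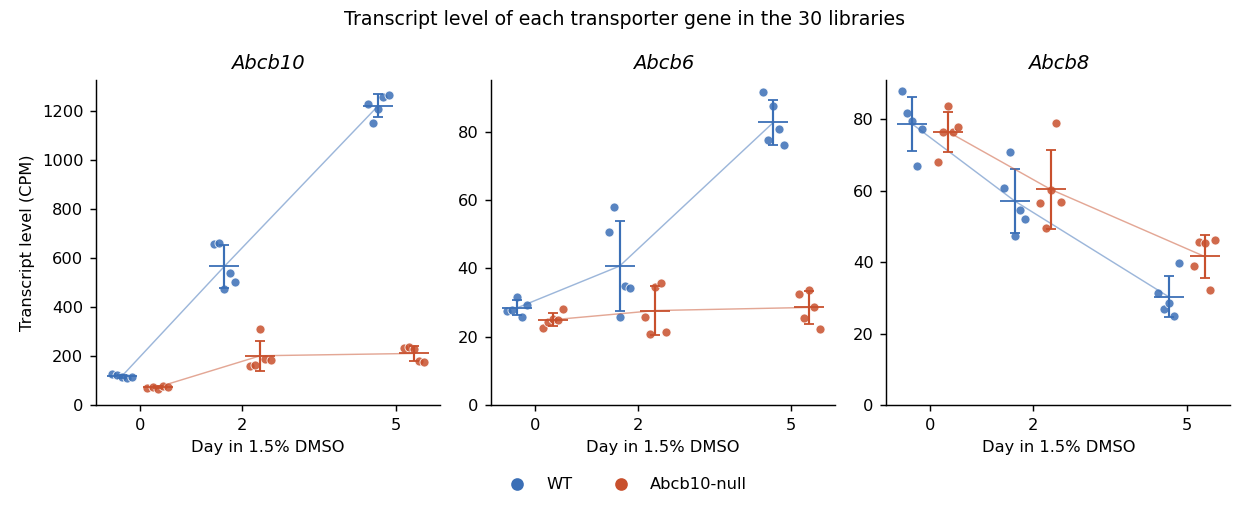
Transcript level (CPM, linear axis from 0) of *Abcb10*, *Abcb6* and *Abcb8* by day in 1.5% DMSO, where day 0 is untreated. Each point is 1 library, bars give the mean ± SD of 5 libraries, lines join the means, and the genotypes are set apart sideways. *Abcb10* and *Abcb6* climb in WT cells to 1223 and 82.7 CPM at day 5, while *Abcb8* declines in both genotypes.

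*Abcb10* rose with differentiation in WT cells at each step. From 119 ± 5.65 CPM (SD, n = 5) at day 0 it went to 567 ± 87.5 CPM at day 2 and to 1223 ± 45.6 CPM at day 5. The day 2 to day 0 ratio was 4.76-fold, with a log2 change of 2.25 (SE 0.10, edgeR adjusted p = 8.84e-09), where 62.2% of all genes were called. From day 2 to day 5 it was 2.17-fold, with a log2 change of 1.11 (SE 0.12, edgeR adjusted p = 3.69e-05), where 33.4% of all genes were called. Over the whole course the ratio was 10.3-fold, with a log2 change of 3.36 (SE 0.086, edgeR adjusted p = 4.93e-11). That comparison called 71.2% of all genes, 36.5% as higher and 34.7% as lower, and *Abcb10* ranked 194 of 12723 from the highest.

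In Abcb10-null cells *Abcb10* rose from day 0 to day 2, and its change after day 2 did not pass the test. It averaged 74.3 ± 4.82 CPM (SD, n = 5) at day 0, 202 ± 62.2 CPM at day 2 and 212 ± 30.2 CPM at day 5. The day 2 to day 0 log2 change was 1.47 (SE 0.16, edgeR adjusted p = 1.5e-05), and 43.1% of all genes were called. From day 2 to day 5 it was 0.066, with a 95% confidence interval from -0.31 to 0.44 and an edgeR adjusted p of 0.803, in a comparison that called 31.0% of all genes. Without the day 2 library with 312 CPM, these values were 1.28 for the first step and 0.27 for the second, and neither call changed. From day 0 to day 5 the log2 change was 1.52 (SE 0.099, edgeR adjusted p = 1.74e-09), where 67.2% of all genes were called.

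The change of *Abcb10* differed between the genotypes in each interval. The difference of the log2 changes, Abcb10-null minus WT, was -0.80 (SE 0.19, edgeR adjusted p = 0.00622) from day 0 to 2 and -1.05 (SE 0.22, edgeR adjusted p = 0.011) from day 2 to 5. From day 0 to 5 it was -1.84 (SE 0.13, edgeR adjusted p = 7.08e-10). These interaction tests called 22.8%, 4.71% and 31.5% of all genes. Without Abcb10-null day 2 replicate 3 the values were -1.05 for day 0 to 2 and -0.80 for day 2 to 5, and without both libraries that stand apart the latter was -0.81.

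*Abcb6* (ENSMUSG00000026198, chromosome 1, 75171717 to 75180392, minus strand, 6 annotated transcripts) shared the rise in WT cells at a lower level. At day 0 its WT libraries had 27.5, 28, 31.8, 25.9 and 29.3 CPM, and its Abcb10-null libraries had 22.7, 24.4, 25.1, 24.9 and 28 CPM. At day 2 the WT libraries had 50.7, 57.9, 25.7, 34.8 and 34.3 CPM, and the Abcb10-null libraries had 25.9, 20.8, 34.6, 35.9 and 21.4 CPM. At day 5 the WT libraries had 91.6, 77.6, 87.4, 80.8 and 76.2 CPM, and the Abcb10-null libraries had 32.6, 25.5, 33.7, 28.8 and 22.4 CPM. The genotypes overlapped at days 0 and 2 and were separate at day 5, as they were for 23.9% of all genes tested that day. WT day 2 was the most spread of its groups, with replicates 1 and 2 over 50 CPM and replicate 3 below all WT day 0 libraries.

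The level of *Abcb6* in Abcb10-null cells was 87.9% of the WT mean at day 0, 68.1% at day 2 and 34.6% at day 5. The genotype difference on the log2 scale was -0.19 (95% confidence interval -0.37 to -0.025, edgeR adjusted p = 0.0686) at day 0. At day 2 it was -0.61 (95% confidence interval -1.12 to -0.11, edgeR adjusted p = 0.0614), so neither day passed the test. DESeq2 passed both, with adjusted p of 0.0414 and 0.0373. At day 5 the log2 change was -1.54 (SE 0.13, edgeR adjusted p = 4e-06), and *Abcb6* stood at 377 of 12676 genes from the lowest.

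In WT cells *Abcb6* averaged 28.5 ± 2.20 CPM (SD, n = 5) at day 0, 40.7 ± 13.2 CPM at day 2 and 82.7 ± 6.57 CPM at day 5. From day 0 to 2 it rose by 0.51 on the log2 scale (SE 0.18, edgeR adjusted p = 0.0247), which no longer passed in 4 of 10 fits that each left out 1 library. From day 2 to 5 it rose by 1.03 (SE 0.19, edgeR adjusted p = 0.00121), and from day 0 to 5 by 1.54 (SE 0.094, edgeR adjusted p = 1.26e-08), which is 2.90-fold. In Abcb10-null cells the means were 25 ± 1.92, 27.7 ± 7.17 and 28.6 ± 4.74 CPM. None of the 3 comparisons between days passed there, with log2 changes of 0.17 (edgeR adjusted p = 0.399), 0.049 (edgeR adjusted p = 0.862) and, from day 0 to 5, 0.20 (95% confidence interval -0.045 to 0.45, edgeR adjusted p = 0.136).

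The difference between the genotypes' changes of *Abcb6* was -1.33 (SE 0.15, edgeR adjusted p = 6.66e-07) from day 0 to 5. It was -0.36 (95% confidence interval -0.87 to 0.15, edgeR adjusted p = 0.293) from day 0 to 2. From day 2 to 5 it was -0.99 (SE 0.27, edgeR adjusted p = 0.0361), but this call was lost in 14 of 20 fits that each left out 1 library and without both libraries that stand apart, where it was -0.90 (edgeR adjusted p = 0.0504).

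The bases upstream of *Abcb10* and *Abcb6* are shown because both genes rose in WT cells and were lower in Abcb10-null cells at day 5. They come from RefSeq's table for GRCm38.p6, which matched 2 of the 3 genes and has no entry for *Abcb8*. Each run is the 250 bases before the annotated start, 5′ to 3′ on the gene's own strand, at chr8:123983123-123983372 and chr1:75180393-75180642, both on the minus strand. Capitals mark matches, on either strand, to CCNCNCCC, a motif of the Krüppel-like factors of which the erythroid factor Klf1 is one, or to the E-box CANNTG, which Tal1 complexes bind.
Abcb10: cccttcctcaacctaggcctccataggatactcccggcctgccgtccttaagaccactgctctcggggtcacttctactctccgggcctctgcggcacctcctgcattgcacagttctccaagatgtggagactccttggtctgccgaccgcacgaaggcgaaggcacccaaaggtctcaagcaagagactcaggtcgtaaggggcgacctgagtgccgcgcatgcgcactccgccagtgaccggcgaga
Abcb6: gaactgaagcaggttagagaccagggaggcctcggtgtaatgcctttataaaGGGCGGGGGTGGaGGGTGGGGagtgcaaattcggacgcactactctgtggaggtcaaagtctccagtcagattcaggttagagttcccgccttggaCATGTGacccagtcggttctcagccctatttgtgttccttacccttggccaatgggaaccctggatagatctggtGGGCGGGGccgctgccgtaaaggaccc
The *Abcb6* run holds 4 matches to CCNCNCCC, of which the first 2 overlap, and 1 E-box that begins 102 bases before the start. The *Abcb10* run holds neither motif. The erythroid GATA motif, searched on both strands as the letters GATA with A or T before them and A or G after them, has no match in either run. Over all 32851 runs of this length in the table, 45.9% hold CCNCNCCC, 66.2% hold the E-box and 26.5% hold the GATA motif. These are matches of letters and not sites of binding, and the windows leave out more distant regulatory sequence. G and C make up 61.6% of the *Abcb10* run and 56.4% of the *Abcb6* run, against a median of 52.4% over all runs.

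*Abcb8* (ENSMUSG00000028973, chromosome 5, 24393663 to 24410054, plus strand, 9 annotated transcripts) went the other way with time. At day 0 its WT libraries had 87.8, 81.6, 79.5, 66.8 and 77.4 CPM, and its Abcb10-null libraries had 67.9, 76.5, 83.8, 76.3 and 77.7 CPM. At day 2 the WT libraries had 60.7, 70.7, 47.4, 54.5 and 52.1 CPM, and the Abcb10-null libraries had 56.7, 49.4, 60.2, 78.8 and 56.7 CPM. At day 5 the WT libraries had 31.3, 27, 28.7, 25 and 39.8 CPM, and the Abcb10-null libraries had 38.9, 45.5, 45.2, 32.2 and 46.2 CPM. The genotypes overlapped at each day. The day 5 overlap came from WT replicate 5 alone, which lay above Abcb10-null replicates 1 and 4, while the other 4 WT libraries lay below all 5 Abcb10-null libraries.

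*Abcb8* fell with differentiation in both genotypes. Its WT mean was 78.6 ± 7.66 CPM (SD, n = 5) untreated, 57.1 ± 8.97 CPM at day 2 and 30.3 ± 5.75 CPM at day 5, a log2 change of -1.37 over the course (SE 0.13, edgeR adjusted p = 5.2e-07). The steps were -0.46 (SE 0.11, edgeR adjusted p = 0.00229) and -0.91 (SE 0.15, edgeR adjusted p = 0.000647). The Abcb10-null means were 76.4 ± 5.66, 60.4 ± 11 and 41.6 ± 6.04 CPM, and the log2 change was -0.87 over the course (SE 0.10, edgeR adjusted p = 1.94e-06). The first step there was -0.31 (SE 0.12, edgeR adjusted p = 0.0463), which no longer passed in 8 of 10 fits without 1 library, and the second was -0.54 (SE 0.14, edgeR adjusted p = 0.0107).

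Between genotypes *Abcb8* was called at day 5 and not at days 0 and 2. On the log2 scale the genotype difference was -0.048 (95% confidence interval -0.21 to 0.11, edgeR adjusted p = 0.655) at day 0 and 0.025 (95% confidence interval -0.30 to 0.35, edgeR adjusted p = 0.912) at day 2. At day 5 it was 0.45 (95% confidence interval 0.14 to 0.76, edgeR adjusted p = 0.0277), a ratio of 1.37-fold. This call was lost in 7 of 10 fits that each left out 1 library, with adjusted p up to 0.0884, and with all genes of at least 1 count, where adjusted p was 0.134. Without WT day 5 replicate 5 it was 0.55 (edgeR adjusted p = 0.00581). The difference between the genotypes' changes from day 0 to 5 was 0.52 (SE 0.17, edgeR adjusted p = 0.0223), lost in 3 of 20 fits that each left out 1 library. From day 0 to 2 it was 0.13 (edgeR adjusted p = 0.595) and from day 2 to 5 it was 0.37 (edgeR adjusted p = 0.327).

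**Figure D2:**
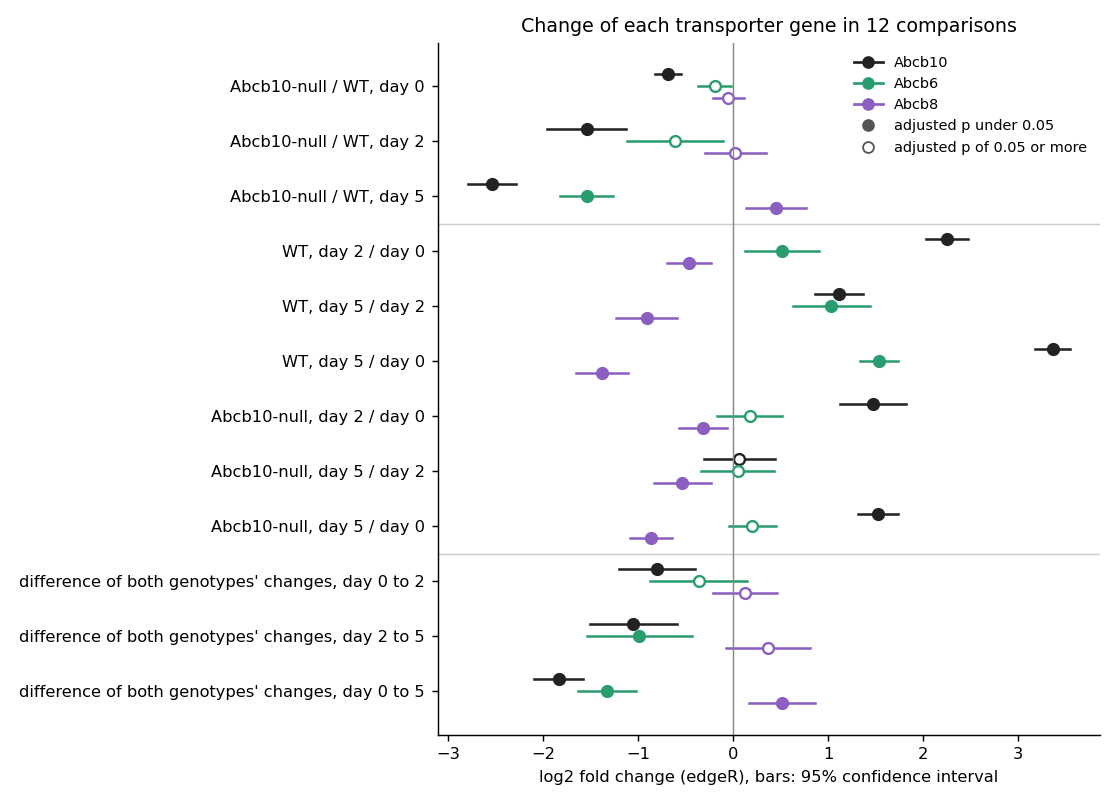
Log2 fold change of each transporter gene in the 12 comparisons, with edgeR's 95% confidence interval as a bar. Filled points have an adjusted p under 0.05, and the last 3 comparisons are the change in Abcb10-null cells minus that in WT cells. At day 5 the genotype difference is -2.54 for *Abcb10*, -1.54 for *Abcb6* and 0.45 for *Abcb8*, and *Abcb8* points opposite to the others in each comparison between days.

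Whether the genes differed from one another in their response was tested on ratios of their counts within a library, which do not depend on library size. At days 0, 2 and 5 the log2 ratio of *Abcb10* to *Abcb6* averaged 2.06 ± 0.13 (SD, n = 5), 3.85 ± 0.26 and 3.89 ± 0.12 in WT libraries, whereas the Abcb10-null libraries averaged 1.57 ± 0.12, 2.86 ± 0.33 and 2.89 ± 0.22. It was thus lower in Abcb10-null cells by 0.49, 0.99 and 1.00, so that *Abcb10* was further below WT than *Abcb6* at each day. All 5 Abcb10-null libraries lay below all 5 WT libraries each time, which gives p = 0.00794 in the two-sided exact permutation test, the smallest that 5 libraries against 5 allow, and an adjusted p of 0.0102 over the 9 ratio tests.

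The log2 ratio of *Abcb10* to *Abcb8* rose in WT cells from 0.60 ± 0.089 (SD, n = 5) at day 0 to 3.31 ± 0.080 at day 2 and 5.35 ± 0.24 at day 5. The Abcb10-null means were -0.040 ± 0.16, 1.72 ± 0.41 and 2.35 ± 0.25. The differences, Abcb10-null minus WT, were -0.64, -1.59 and -3.0, each with an exact p of 0.00794 (adjusted p = 0.0102). By day 5 counts of *Abcb10* were from 31.8 to 50.3 times those of *Abcb8* in WT libraries and from 3.83 to 5.98 times in Abcb10-null libraries.

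The log2 ratio of *Abcb6* to *Abcb8* differed most between the genotypes at day 5. Its WT means were -1.46 ± 0.15 (SD, n = 5), -0.54 ± 0.26 and 1.46 ± 0.30 at days 0, 2 and 5, and the Abcb10-null means were -1.61 ± 0.097, -1.14 ± 0.22 and -0.54 ± 0.38. The difference at day 5 was -2.0, with all libraries separate (exact p = 0.00794, adjusted p = 0.0102). At day 2 it was -0.61 (exact p = 0.0159, adjusted p = 0.0179), with an overlap from WT replicate 3 and Abcb10-null replicate 3. At day 0 it was -0.15 (exact p = 0.0952, adjusted p = 0.0952). WT day 5 replicate 5 had the lowest WT ratio of day 5, 0.94 against 1.52 to 1.69, and without it the day 5 difference was -2.13.

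**Figure D3:**
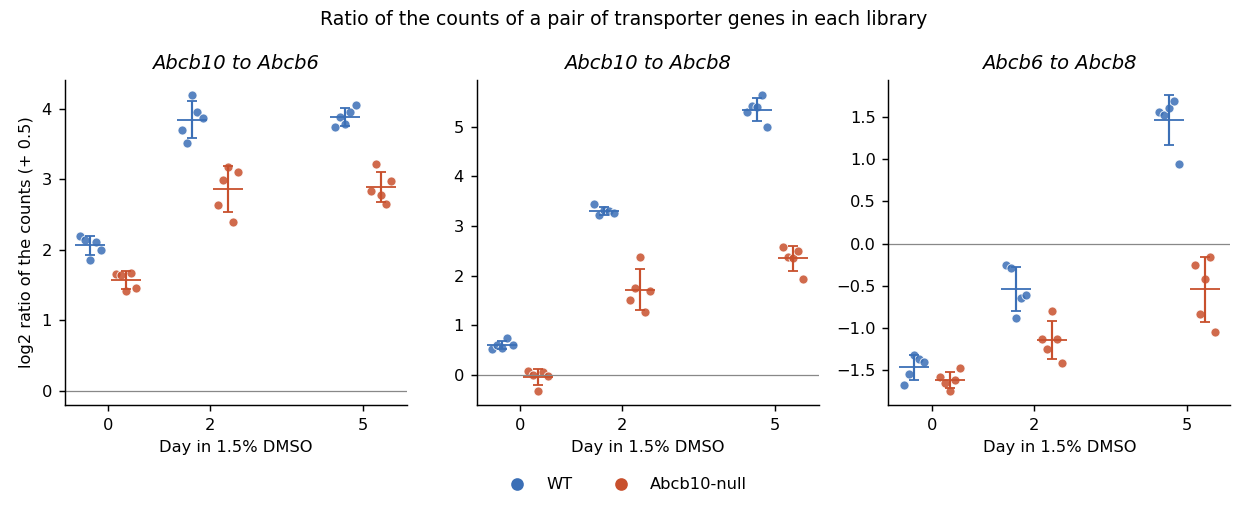
Log2 ratio of the counts, each with 0.5 added, of 2 transporter genes within each library, by day in 1.5% DMSO. Each point is 1 library and bars give the mean ± SD of 5 libraries. The genotypes are separate at each day for both ratios with *Abcb10*, and at day 5 for *Abcb6* to *Abcb8*, where the means are 1.46 in WT and -0.54 in Abcb10-null cells.

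Levels of different genes can be compared only per length, so CPM was divided by the kilobases of each gene's exons (RPKM). In WT cells *Abcb10* had 27.6 ± 1.31 RPKM (SD, n = 5) at day 0, 132 ± 20.3 RPKM at day 2 and 284 ± 10.6 RPKM at day 5. In the order of the 52 ABC family genes by mean RPKM it went from place 6 at day 0 to place 1 at days 2 and 5 in WT cells, and held places 7, 5 and 4 in Abcb10-null cells. *Abcb8* had 16.6 ± 1.62, 12 ± 1.89 and 6.40 ± 1.21 RPKM in WT cells and 16.1 ± 1.19, 12.7 ± 2.32 and 8.78 ± 1.27 RPKM in Abcb10-null cells. In Abcb10-null cells *Abcb10* had 17.3 ± 1.12 RPKM at day 0, when the libraries of the 2 genes overlapped, and 47.0 ± 14.4 and 49.2 ± 7.01 RPKM at days 2 and 5, above both other genes. The exons of *Abcb8* span 4739 bases over its 9 transcripts, of which the longest has 3074 bases. Its RPKM, the overlap at day 0 and the places in the family thus depend on the length used.

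The level per length of *Abcb6* depends on how its exons were counted. The gene *Gm29253* covers 2932 of its 5315 exon bases (55.2%) on the same strand, and no library held more than 8 counts of *Gm29253*. Whether reads in the shared part were given to *Abcb6* or left uncounted is not given in the sources used here. Per length of all exons the WT means of *Abcb6* at days 0, 2 and 5 were 5.36 ± 0.41, 7.66 ± 2.48 and 15.6 ± 1.24 RPKM (SD, n = 5). Per length of the 2383 bases that are not shared, these were 12 ± 0.92, 17.1 ± 5.54 and 34.7 ± 2.76 RPKM. In WT cells *Abcb6* stood above *Abcb8* at day 5 by either length, whereas at day 2 the order of their means turned with the length used. In Abcb10-null cells at day 5 the mean of *Abcb6* was 5.38 RPKM by all exons and 12 RPKM by unshared exons, on either side of the 8.78 RPKM of *Abcb8*. Fold changes of *Abcb6* between groups do not use its length. For *Abcb10*, the antisense gene *Gm45890* covers 444 exon bases (10.3%) on the opposite strand and had at most 14 counts in a library.

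Beside the 3 members, other transporters of subfamily B did not move as one group. Of 8 such genes in the table that were listed, 4 passed the filter on low counts. At day 5 in Abcb10-null cells 1 of the 4 was higher, 2 were lower and 1 did not pass, with a median log2 change of -0.26 against -0.016 over all genes. For all genes tested that day, 19.8% were higher and 17.8% lower. *Abcb9*, a peptide transporter of lysosomes, fell from 17.1 ± 2.83 CPM (SD, n = 5) in WT to 5.35 ± 1.85 CPM in Abcb10-null cells at day 5 (log2 change -1.67, edgeR adjusted p = 0.000151). *Tap1*, a subunit of the transporter that loads peptides onto MHC class I molecules, was higher, with 40.5 ± 6.84 against 21.7 ± 2.97 CPM (log2 change 0.89, edgeR adjusted p = 0.000467). *Abcb4*, a phospholipid floppase best known from bile, was at 283 ± 84.2 against 424 ± 55.8 CPM (log2 change -0.59, edgeR adjusted p = 0.0224).

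Across the ABC family, 29 of 52 genes passed the filter on low counts at day 5. Of these, 6 were higher and 7 lower in the clone and 16 did not pass, with a median log2 change of -0.010. At day 0, 8 of 31 were higher and 5 lower, and at day 2, 3 of 29 were higher and 8 lower. Among all genes tested, 19.8% were higher and 17.8% lower at day 5. These shares were 19.7% and 16.2% at day 0, and 14.9% and 16.9% at day 2. *Abcb10* had the lowest log2 change of the family at day 5 and *Abcb6* the third lowest, after *Abcb9*. The next were *Abca7*, a lipid transporter, at -1.30 (edgeR adjusted p = 3.94e-05) and *Abcg4*, a sterol transporter, at -1.07 (edgeR adjusted p = 0.00218). *Abcb8* was 1 of the 6 that were higher. *Abcb10* belongs to this count, and it is the gene that was targeted.

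**Figure D4:**
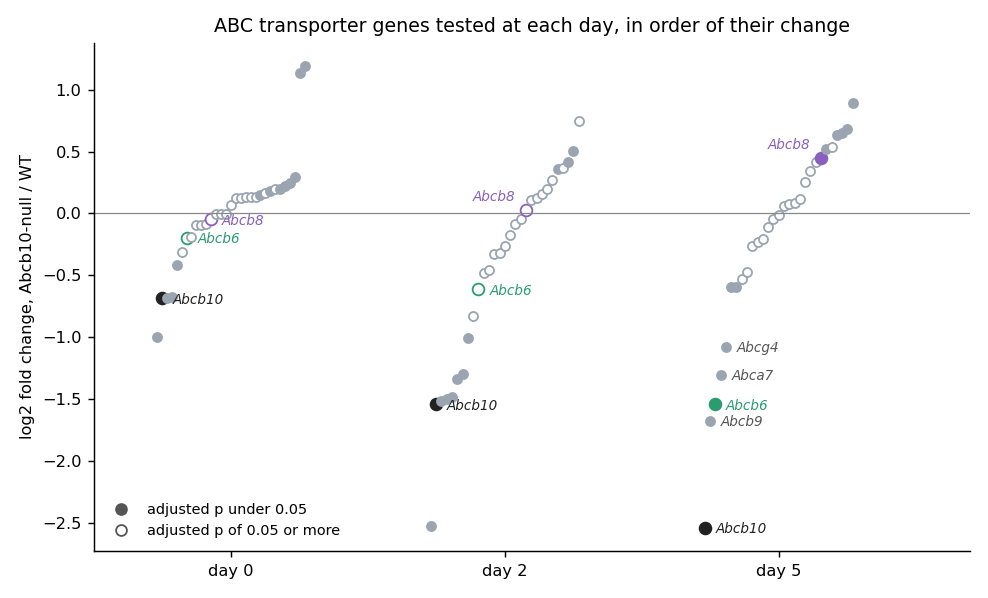
Log2 fold change, Abcb10-null over WT, of each ABC family gene that passed the filter at days 0, 2 and 5, in order of its change within a day. Filled points have an adjusted p under 0.05. At day 5 *Abcb10*, *Abcb9*, *Abcb6*, *Abca7* and *Abcg4* lie lowest, from -2.54 to -1.07, and *Abcb8* lies at 0.45.

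The known partners of Abcb10 were lower in Abcb10-null cells at day 5, as were 17.8% of all genes tested. *Slc25a37*, which imports iron into mitochondria, had 221 ± 84.6 CPM (SD, n = 5) in WT libraries against 56.5 ± 16 CPM in Abcb10-null libraries, a log2 change of -1.98 (SE 0.26, edgeR adjusted p = 0.000111). It was also lower at days 0 and 2, by -0.31 (edgeR adjusted p = 0.00576) and -0.93 (edgeR adjusted p = 0.0189). At day 5 *Fech* had 538 ± 71.8 CPM in WT and 300 ± 72.3 CPM in the Abcb10-null clone. Its log2 change was -0.85 (edgeR adjusted p = 0.0015). At day 2 *Fech* was at -0.39 (edgeR adjusted p = 0.0157), and at day 0 it did not pass, at 0.095 (edgeR adjusted p = 0.255). In WT cells *Fech* and *Slc25a37* rose from day 0 to day 5 by 2.94 and 2.76 on the log2 scale, beside 3.36 for *Abcb10*.

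Carriers of heme, porphyrins, their precursors or mitochondrial iron, a list that includes *Slc25a37*, changed in both directions at day 5. Of 11 listed genes 10 were tested, and at day 5 in Abcb10-null cells 2 were higher and 4 lower, with a median log2 change of -0.047. Beside these, 19.8% of all genes tested were higher and 17.8% lower. *Tspo*, an outer-membrane protein that binds porphyrins, was lower, with 48.7 ± 9.87 against 121 ± 27.8 CPM (SD, n = 5, log2 change -1.31, edgeR adjusted p = 0.000161). *Slc25a38*, the mitochondrial glycine importer of heme synthesis, had a log2 change of -0.74 (edgeR adjusted p = 0.0144), and *Flvcr1*, known as a heme exporter, one of 0.57 (edgeR adjusted p = 0.00117). At days 0 and 2 the counts were 2 higher and 4 lower, and 0 higher and 1 lower, the latter being *Slc25a37*. All genes tested gave 19.7% higher and 16.2% lower at day 0, and 14.9% and 16.9% at day 2.

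The enzymes of heme synthesis were mostly lower at day 5, when *Abcb10* and *Abcb6* were both called lower, and were split at day 0. All 9 listed genes were tested, and at day 5 none was higher and 8 were lower in the clone, the median log2 change being -0.97. Over all genes tested that day, 19.8% were higher and 17.8% lower. *Alad* and *Cpox*, which act early and late in the pathway, were at -1.76 (edgeR adjusted p = 2.64e-06) and -1.75 (edgeR adjusted p = 0.000798). At day 2, 5 were lower and none was higher, and at day 0, 3 were lower and 3 higher. Over all genes tested, 16.9% were lower and 14.9% higher at day 2, and 16.2% and 19.7% at day 0. In WT cells all 9 rose from day 0 to day 5, as did 36.5% of all genes tested. The study named several of these enzymes from the same libraries, so their direction is not independent evidence.

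General mitochondrial genes fell with time, as *Abcb8* did, and were mostly higher in Abcb10-null cells at day 5. Abcb8's channel partner gene *Ccdc51* fell in WT cells from 36.0 ± 6.42 CPM (SD, n = 5) at day 0 to 18.8 ± 5.34 CPM at day 5 (log2 change -0.94, edgeR adjusted p = 0.000624) and in Abcb10-null cells by 0.67 on the log2 scale (edgeR adjusted p = 0.00012). Between genotypes *Ccdc51* was not called, with log2 changes of -0.073, 0.51 and 0.19 at days 0, 2 and 5 (edgeR adjusted p = 0.668, 0.0577 and 0.443). The 15 general mitochondrial proteins listed include the porin *Vdac2*, the import receptor *Tomm20* and the chaperone *Hspd1*. All 15 fell in WT cells from day 0 to day 5, with a median log2 change of -1.44. In that comparison 34.7% of all genes tested were lower. Against 19.8% of all genes tested, 12 of the 15 were higher in Abcb10-null cells at day 5. None was lower, and the median was 0.56. At day 2, 6 were higher and none was lower, with a median of 0.36, beside 0.025 for *Abcb8*. At day 0 none of the 15 was higher and 2 were lower. All genes tested gave 14.9% higher and 16.9% lower at day 2, and 19.7% and 16.2% at day 0. *Tomm20* was at 0.91 (edgeR adjusted p = 0.000582) and *Hspd1* at 0.76 (edgeR adjusted p = 0.00311), at day 5, beside 0.45 for *Abcb8*.

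Biliverdin, the product of heme breakdown, has been proposed as a substrate of Abcb10. At day 5 in Abcb10-null cells 19.8% of all genes tested were higher and 17.8% lower. Of 4 genes of heme breakdown and biliverdin reduction, 1 was higher that day and none was lower. At day 0 none was higher and 2 were lower, *Hmox1* at -0.30 (edgeR adjusted p = 0.00286) and *Blvrb* at -0.21 (edgeR adjusted p = 0.038). At day 2 *Blvrb* alone was lower, at -0.33 (edgeR adjusted p = 0.0306). All genes tested gave 19.7% higher and 16.2% lower at day 0, and 14.9% and 16.9% at day 2. The gene that was higher at day 5 was *Hmox1*, the inducible heme oxygenase, with 65.2 ± 15.4 CPM (SD, n = 5) against 9.39 ± 5.24 CPM in WT (log2 change 2.79, edgeR adjusted p = 2.46e-05). In the same interval in which WT *Abcb10* rose by 3.36, *Hmox1* changed in WT cells by -2.29 (edgeR adjusted p = 5.27e-06). The biliverdin reductases *Blvra* and *Blvrb* did not pass at day 5, with log2 changes of -0.17 (edgeR adjusted p = 0.281) and -0.42 (edgeR adjusted p = 0.0936).

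The erythroid regulators include factors that are known to drive heme genes. Of 8 listed, none was higher and 4 were lower at day 5 in Abcb10-null cells, with log2 changes of -1.49 for *Klf1*, -1.38 for *Tal1*, -1.01 for *Nfe2* and -0.68 for *Gata1*, the latter with an edgeR adjusted p of 0.000947. At day 0, 2 of the 8 were higher, *Lmo2* at 0.33 (edgeR adjusted p = 0.000962) and *Ldb1* at 0.41 (edgeR adjusted p = 0.000385), and 1 was lower, *Zfpm1*, a partner of Gata1, at -0.35 (edgeR adjusted p = 0.00825). *Abcb10* was at -0.68 that day, and the values of *Klf1*, *Tal1* and *Gata1* were 0.010, -0.00029 and 0.0039, with edgeR adjusted p of 0.92, 0.997 and 0.971. At day 2, 1 of the 8 was higher and 2 were lower, *Klf1* at -0.82 (edgeR adjusted p = 0.00489) and *Zfpm1* at -1.12 (edgeR adjusted p = 0.0108). All genes tested gave 19.8% higher and 17.8% lower at day 5. These shares were 19.7% and 16.2% at day 0, and 14.9% and 16.9% at day 2.

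The summed level of markers of the cells' own lineage was higher at day 5 than at day 0 in both genotypes. In Abcb10-null cells 7 of the 10 markers were called higher and 2 lower over that interval. *Abcb6* did not pass there, and 67.2% of all genes were called. The 10 erythroid markers were all detected in each group, and their summed level was 2279 to 2568 CPM in WT and 2386 to 2771 CPM in Abcb10-null libraries at day 0. At day 2 it was 3496 to 5159 CPM in WT and 2450 to 3504 CPM in Abcb10-null libraries, and at day 5 it was 7780 to 16890 and 3863 to 5566 CPM. All 10 were lower in Abcb10-null cells at day 5, as were 17.8% of all genes tested. WT day 5 replicate 5, with the lowest WT sum, still had 1264 CPM of *Abcb10* and 76.2 CPM of *Abcb6*, the highest and the lowest of its group. The 10 myeloid and mast cell markers summed to 8.18 to 9.24 CPM in WT and 14.2 to 16.3 CPM in Abcb10-null libraries at day 0, when 2 of the 10 were at 0 in each group, and to at most 10.3 CPM later. The 9 lymphoid markers summed to at most 11.8 CPM in any library. This sum and the 10.3 CPM of myeloid and mast cell markers both came from Abcb10-null day 5 replicate 4. The medians of its group were 0.44 and 2.46 CPM. That library had 181, 28.8 and 32.2 CPM of *Abcb10*, *Abcb6* and *Abcb8*, the last being the lowest of its group. The 6 megakaryocyte markers summed to 155 to 605 CPM over all libraries, and *Pf4* and *Gp9* were called in opposite directions at day 5. The part of these markers in the levels of the transporters was not tested.

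The genes within 100 kilobases of *Abcb10* were looked at because the clone was edited there. Of 12 annotated neighbours in the table, 4 were tested. At day 5 *Nup133*, which encodes a nuclear pore subunit and lies 3194 bases away, was at -0.73 (edgeR adjusted p = 0.00029). *Taf5l* and *Urb2* on the other side were at 0.82 (edgeR adjusted p = 0.000345) and 1.04 (edgeR adjusted p = 0.000312). At day 0, with *Abcb10* at -0.68, *Nup133* was at -0.21 (edgeR adjusted p = 0.039) and the other 3 did not pass. Over all genes the test called 37.6% at day 5 and 36.0% at day 0. *Ccsap* did not pass at any day.

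The patterns over all 30 libraries were also compared gene by gene, by Pearson's correlation of log2(CPM + 0.5) among 10541 protein-coding genes with a mean of at least 1 CPM. The libraries share their 6 groups, so these values describe likeness of pattern and nothing more. The genes most like *Abcb10* were *Rab3il1* (r = 0.985), *Trim10* (0.976), *Dhrs11* (0.973), *Fads3* (0.970) and *Kmt5c* (0.966). The WT means of *Rab3il1* at days 0, 2 and 5 were 1.67, 23.6 and 91.0 CPM, beside Abcb10-null means of 0.49, 5.16 and 8.50 CPM. Those most like *Abcb6* were *Plek2* (r = 0.933), *Ctsf* (0.925), *Slc25a37* (0.903), *Lpcat1* (0.901) and *Hbq1a* (0.897), of which *Ctsf* and *Hbq1a* averaged under 1 CPM in several groups. Those most like *Abcb8* were *Rcc1l* (r = 0.966), *Mrto4* (0.962), *Gnb1l* (0.962), *Cox10* (0.959) and *Tars2* (0.957). *Cox10*, an enzyme of the pathway to heme A, had WT means of 21, 14.6 and 6.18 CPM and Abcb10-null means of 19.6, 16.4 and 9.65 CPM.

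Among the members themselves, *Abcb10* and *Abcb6* had r = 0.867 over the 30 libraries, which put *Abcb10* at place 19 in the list for *Abcb6* and *Abcb6* at place 206 in that for *Abcb10*. *Abcb8* had r = -0.744 with *Abcb10* and r = -0.617 with *Abcb6*.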

How the data were processed

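Total RNA of 30 libraries from a mouse cell line was depleted of ribosomal and globin RNA, made into stranded libraries and sequenced in pairs. The authors aligned trimmed reads with STAR 2.6.1b to GRCm38 and counted them per gene with featureCounts 1.6.3, and the deposited values are these raw counts. The settings for strand and for reads in more than 1 gene are not given in the sources used here. Depletion of globin removes the most abundant erythroid transcripts, so CPM is relative to the RNA that was left.

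Genes were kept by edgeR's filterByExpr, scaled with TMM and tested with edgeR 4.0.16 (quasi-likelihood F test) in R 4.3.3, using the libraries of the groups compared. P-values were adjusted by the Benjamini-Hochberg method over all genes tested, at a threshold of 0.05, and 9219 of 54532 genes had no count in any library. Ratios within a library used log2(count + 0.5) and a two-sided exact permutation test. RPKM used GRCm38 exon lengths. Alternatives were DESeq2 1.42.0, its size factors, 2 other count filters, 1 fit of all libraries, a replicate block and leaving out each library. Libraries of different groups with the same replicate number mostly did not deviate together. Over 75 pairs the correlation ran from -0.26 to 0.43 with a median of -0.014, and 8 exceeded 0.1.

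The 3 genes and the gene lists were chosen with earlier results of these data known. Values were named for the 3 genes, for preset partners, for called list genes with the largest change at day 5, for neighbours of *Abcb10* and for the 5 genes most like each member. *Vdac2*, *Pf4*, *Gp9*, *Lmo2*, *Ldb1* and *Zfpm1* were named after their values were seen. The fits were tested on simulated data.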

Additional observations from a re-analysis of the deposited data

Results flagged for a closer look

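*Abcb10* in Abcb10-null day 2 replicate 3 had 312 CPM, against 162 to 189 CPM in the other 4 libraries of that group. The gap to the nearest library was 0.82 of the group's range, over Dixon's limit of 0.71 for 5 samples. It was the only 1 of 18 groups of 5 libraries tested that passed the limit, and chance alone passes it in about 1 group of 20. *Abcb6* in the same library had 34.6 CPM, the second highest of its group.

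The change with time differed between the genotypes in 6 of the 9 tests of the members. Over all genes these tests called 22.8% for day 0 to 2, 4.71% for day 2 to 5 and 31.5% for day 0 to 5. For *Abcb10* the difference in log2 fold change, Abcb10-null minus WT, was -0.80 from day 0 to 2, -1.05 from day 2 to 5 and -1.84 from day 0 to 5. For *Abcb6* it was -0.99 from day 2 to 5, a call lost in 14 of 20 fits that each left out 1 library, and -1.33 from day 0 to 5. For *Abcb8* it was 0.52 from day 0 to 5, in the opposite direction.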

How the results depend on the processing

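Each library was left out in turn, which gave 690 values, of which 626 kept their direction and their side of the threshold or moved within the limits set for counts. The other settings gave 349 values, and 334 of them did so. All calls of *Abcb10* kept both in every setting run.

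With DESeq2, *Abcb6* passed at day 0 with -0.21 and at day 2 with -0.60, and the day 2 to 5 interaction called 1275 genes in place of 657. With all genes of at least 1 count, *Abcb6* passed at day 2 with -0.58, its Abcb10-null change from day 2 to 5 turned to -0.0016, and 3 values of *Abcb8* no longer passed: 0.42 at day 5, -0.33 for day 2 against day 0 in Abcb10-null cells, and 0.53 for the day 0 to 5 interaction. With all 30 libraries in one fit, *Abcb6* passed at day 2 with -0.56, 1584 genes in place of 4642 were called at day 0, and 1705 in the day 2 to 5 interaction. With the replicate block, *Abcb6* in WT from day 0 to 2 (0.46) and *Abcb8* in Abcb10-null cells from day 0 to 2 (-0.33) no longer passed, and no other call on the members changed. Libraries with the same replicate number mostly did not deviate together, with a median correlation of -0.014 and a highest of 0.43. Pairing between single groups was not tested. Without both libraries that stand apart, a setting chosen after seeing the data, *Abcb6* had -0.90 in the day 2 to 5 interaction, which then called 1013 genes.

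With 1 library left out, the values whose call or sign changed ran as follows. The genotype difference of *Abcb6* at day 0 lay between -0.24 and -0.16, and that at day 2 between -0.74 and -0.44. Its WT change from day 0 to 2 ran from 0.39 to 0.69, its Abcb10-null change from -0.035 to 0.16 for day 2 to 5 and from 0.13 to 0.26 for day 0 to 5, and its day 2 to 5 interaction from -1.12 to -0.81. The genotype difference of *Abcb8* at day 2 lay between -0.087 and 0.12, and that at day 5 between 0.37 and 0.55. Its Abcb10-null change from day 0 to 2 ran from -0.41 to -0.24, and its interactions from -0.024 to 0.18 for day 0 to 2 and from 0.45 to 0.63 for day 0 to 5. The Abcb10-null change of *Abcb10* from day 2 to 5, which passed in no fit, ran from -0.0050 to 0.27. The ratio of *Abcb6* to *Abcb8* at day 0 differed by -0.20 to -0.11. Genes called ran from 2665 to 5357 at day 2, against 4151 with all libraries, and from 275 to 1352 in the day 2 to 5 interaction. The causes were not tested.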
